A study of Mus musculus with 2 samples.

Results

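The 5 genes described here code for the polycystin channel subunits *Pkd2l1* and *Pkd1l3* and the otopetrin proton channels *Otop1*, *Otop2* and *Otop3*, which were chosen by name as candidates or relatives of candidates for sour taste. Each had exactly 1 row among the 18498 rows of the table, of which 18043 carried a gene symbol. The data were RPKM values (read density scaled to exon model length and to mapped reads) from 2 poly(A) RNA libraries of mouse tongue. The circumvallate papillae (CvP) gave 1 library and the epithelium without papillae (Epi) gave the other. In both cases RNA of at least 20 untreated male C57BL/6J mice, aged 12 to 30 weeks and fed normal chow, was pooled before sequencing. With 1 library per tissue there was no replicate, so every comparison below is between these libraries, no p-value was calculated, and each interval covers counting error only.

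Sour taste starts with acid acting on type III cells, the presynaptic cells of the taste bud. Protons enter these cells through an apical conductance, and block of resting potassium channels by acid inside the cell adds to the depolarization that drives transmitter release. *Otop1* codes for the proton channel of type III cells. *Pkd2l1* codes for a cation channel of the TRP superfamily and is a standard marker of these cells. *Pkd1l3* codes for a large protein with many membrane spans that assembles with the *Pkd2l1* product and helps it reach the cell surface. *Otop2* and *Otop3* code for relatives of *Otop1* that also conduct protons when expressed in cultured cells.

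*Pkd2l1*, *Pkd1l3* and *Otop1* were found in the CvP and at or close to 0 in the Epi, whereas *Otop2* and *Otop3* were found in both libraries and were higher in the Epi. The first 3 of the 5 genes met both criteria applied here, an RPKM over 10 in the CvP and over 3 times that of the Epi, against 2.35% of all rows. The same 3 had a ratio above 3 with no minimum level, as had 26.1% of the 18033 rows with a value above 0 in either library. The other 2 genes had a ratio below 1, as had 21.7% of those rows. All 5 genes had a CvP RPKM above 10, so the split between them lay in the Epi values. Because the tissues were profiled in bulk, fewer cells of a type and less RNA per cell cannot be told apart in any of these values.

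**Figure D1:**
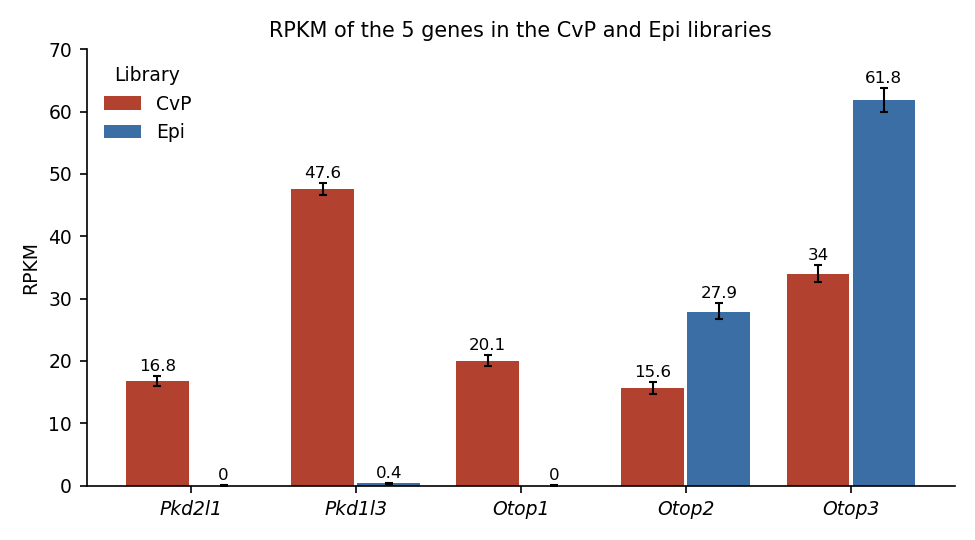
RPKM of the 5 genes (vertical axis, linear from 0) in the CvP library (red) and the Epi library (blue), 1 pooled library each. Error bars are 95% exact Poisson intervals from the estimated reads and cover counting error only. *Pkd2l1*, *Pkd1l3* and *Otop1* stand at 16.8, 47.6 and 20.1 in the CvP and at 0, 0.40 and 0 in the Epi, while *Otop2* and *Otop3* are taller in the Epi.

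The mapped reads behind these values were about 28411900 for the CvP and 27960200 for the Epi, read from the step between low values in the 163 rows of 0.1 kb. Across the 10363 rows with an RPKM of at least 1 in both libraries, the median CvP/Epi ratio was 1.31, and 24.4% of these rows were lower in the CvP. Listed genes of stratified epithelium summed to an RPKM of 35209.9 (CvP) and 83546 (Epi), most of it from *Krt13* and *Krt4*, though 3 of the 8 were higher in the CvP, and 8 general taste tissue genes such as *Krt8* to 609 and 21.04. Of 8 housekeeping genes looked up, 0 were listed at 0 in the Epi, where the lowest was *Tbp* at an RPKM of 4.42.

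*Pkd2l1* (chromosome 19, minus strand, 44222127 to 44266932 in NCBI37/mm9) was seen in the CvP alone, and its longest coding transcript in the GENCODE M1 annotation has 15 exons. Its RPKM was 16.8 in the CvP, from about 1581 reads (95% Poisson interval 15.9 to 17.6), and it was listed at 0 in the Epi. The CvP value was thus far from 0 while no read was seen in the Epi at a similar depth. A count of 0 allows up to 3 reads in the Epi library, or an RPKM of 0.0323 for a transcript of this length. Against that floor, *Pkd2l1* was at least 519-fold higher in the CvP. The lower limit of the exact (Clopper-Pearson) 95% interval of the ratio was 421.

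*Pkd1l3* (chromosome 8, plus strand, 112138417 to 112196492, 35 exons in its longest coding transcript) had the highest CvP value of the 5 genes. About 9001 reads gave it an RPKM of 47.6 in the CvP, and about 74 reads one of 0.40 in the Epi. The ratio was 119, with an interval from 95.2 to 153. Unlike its partner *Pkd2l1*, this gene therefore had a measurable Epi value. Its 3′ end meets the gene *2400003C14Rik*, which runs on the opposite strand, stood at 68.6 and 51.7 RPKM in CvP and Epi, and shares 127 exon bases with *Pkd1l3* in GENCODE M1. At the Epi level of *2400003C14Rik*, 127 bases would hold about 184 reads. That is more than the 74 estimated for *Pkd1l3*, or the 100 estimated from its listed length. Use of strand is not given in the sources used here for either the library or the read counts, and the part of these shared bases in the Epi value was not tested. The corresponding number in the CvP was about 247, small beside 9001 reads. Of the 6586 windows of 75 bases in the *Pkd1l3* transcript, 45 also occur in a transcript of *2400003C14Rik*. The transcripts of the other 4 genes had 0 such windows in any other coding gene, so a read of 75 bases from any of them matches no other coding gene of that annotation exactly.

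*Otop1* (chromosome 5, plus strand, 38668643 to 38695456, 7 exons) had an RPKM of 20.1 in the CvP, from about 1791 reads (interval 19.2 to 21.0). In the Epi it was listed at 0, like *Pkd2l1*. The floor of 3 reads was an RPKM of 0.0342, and against it *Otop1* was at least 588-fold higher in the CvP. The lower limit of the exact interval was 477. Only 25 of the 18498 rows were listed at 0 in the Epi with a CvP RPKM above 10, and *Otop1* and *Pkd2l1* were both among them.

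*Otop2* (chromosome 11, plus strand, 115168477 to 115193617, 8 exons) showed the opposite order. About 1034 reads gave it an RPKM of 15.6 in the CvP, and about 1823 reads one of 27.9 in the Epi. The CvP/Epi ratio was 0.558 (interval 0.517 to 0.603), which is 1.79-fold higher in the Epi (1.66 to 1.94). *Otop3* (chromosome 11, plus strand, 115196048 to 115208240, 7 exons) had about 2340 reads and an RPKM of 34.0 in the CvP. In the Epi it had about 4186 reads and an RPKM of 61.8, the highest value of any of the 5 genes in either library. Its ratio was 0.550 (0.523 to 0.579), or 1.82-fold higher in the Epi (1.73 to 1.91), and its interval overlapped that of *Otop2*. Among rows with an RPKM of at least 1 in both libraries, 4.03% had a lower ratio than *Otop2* and 3.89% a lower ratio than *Otop3*. Among the 4335 of these rows with a geometric mean RPKM from 10 to 100, which covers both genes, the shares were 4.50% and 4.34%.

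**Figure D2:**
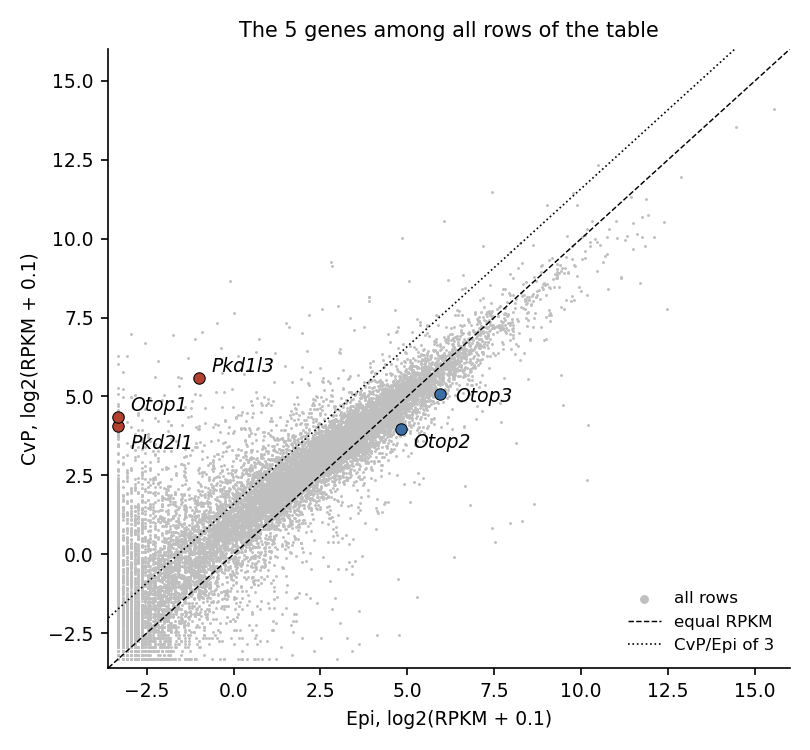
Each row of the table (grey) by its level in the Epi (horizontal) and the CvP (vertical), both as log2(RPKM + 0.1), with the 5 genes marked in red (higher in the CvP) or blue (higher in the Epi). *Otop1*, *Pkd2l1* and *Pkd1l3* lie far above the dotted line of a CvP/Epi ratio of 3, and *Otop2* and *Otop3* lie below the dashed line of equal RPKM.

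The tissues differed in which otopetrin made up the family's transcripts. Summed RPKM of the 3 genes came to 69.7 (CvP) and 89.7 (Epi). *Otop1* held 28.8% of that sum in the CvP and none of it in the Epi, and *Otop3* held the largest share in each, 48.8% in the CvP and 68.9% in the Epi. *Otop2* made up 22.4% and 31.1%. Between themselves *Otop3* and *Otop2* kept a similar proportion. *Otop3* was 2.18-fold above *Otop2* in the CvP (interval 2.03 to 2.35) and 2.21-fold above it in the Epi (2.09 to 2.34).

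In order of CvP RPKM the genes ran *Pkd1l3*, *Otop3*, *Otop1*, *Pkd2l1* and *Otop2*. *Pkd1l3* was 1.40-fold above *Otop3* (interval 1.34 to 1.46), *Otop3* 1.69-fold above *Otop1* (1.59 to 1.80) and *Otop1* 1.20-fold above *Pkd2l1* (1.12 to 1.28). The quotient of *Pkd2l1* to *Otop2* was 1.08 (0.993 to 1.16), and this last pair could not be told apart beyond counting error. The subunits of the polycystin pair were unequal, with *Pkd1l3* 2.84-fold above *Pkd2l1* (2.69 to 2.997) per kilobase. In the Epi the order was *Otop3*, *Otop2* and *Pkd1l3*, followed by *Pkd2l1* and *Otop1* at 0, and *Otop2* was 69.8-fold above *Pkd1l3* (55.7 to 89.9). The order across genes rests on the lengths listed in the table, which exceed the longest annotated coding transcript by factors from 1.35 for *Pkd1l3* to 2.39 for *Otop2*. If the listed lengths are replaced by the annotated ones, the CvP levels become 76.7 for *Otop3*, 64.1 for *Pkd1l3*, 44.5 for *Otop1*, 37.2 for *Otop2* and 25.7 for *Pkd2l1*, which exchanges both the first pair and the last pair in the order. The Epi levels become 139.5 for *Otop3*, 66.6 for *Otop2* and 0.539 for *Pkd1l3*, which keeps their order and widens the distance of *Pkd1l3* from both otopetrins. Ratios of a gene between the libraries do not change with its length.

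The genes on either side of *Pkd2l1*, *Pkd1l3* and *Otop1* had CvP/Epi ratios near the median of all rows. Beside *Pkd2l1*, *Bloc1s2* had a CvP/Epi ratio of 1.08 and *Scd3* one of 1.19. *Scd3* was low, at 0.19 RPKM (CvP) and 0.16 (Epi), and its interval ran from 0.569 to 2.43. The genes around *Pkd1l3* had ratios of 1.43 (*Dhodh*), 1.33 (*2400003C14Rik*) and 1.66 (*Zfp821*). On either side of *Otop1*, *Tmem128* was at 1.66 and *Slc2a9* at 1.42, the latter from 0.85 RPKM (CvP) and 0.60 (Epi) (interval 1.02 to 2.02). All 7 of these neighbours thus lay between 1.08 and 1.66. *Otop2* and *Otop3* are themselves neighbours, with 2430 bases between their rows. *Ush1g*, which codes for a scaffold protein of hair cells, lies within the span of *Otop2* on the opposite strand and shares 0 annotated exon bases with it. *Ush1g* stood at 1.51 and 2.86 RPKM in CvP and Epi, and the interval of its ratio of 0.528 (0.426 to 0.653) overlapped those of both otopetrins. The genes beyond this group of 3 were higher in the CvP. *Fads6*, a predicted fatty acid desaturase gene before *Otop2*, had a ratio of 1.62, and *C630004H02Rik*, 782 bases beyond *Otop3*, stood at 5.79 and 0.67, a ratio of 8.64 (6.66 to 11.5).

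**Figure D3:**
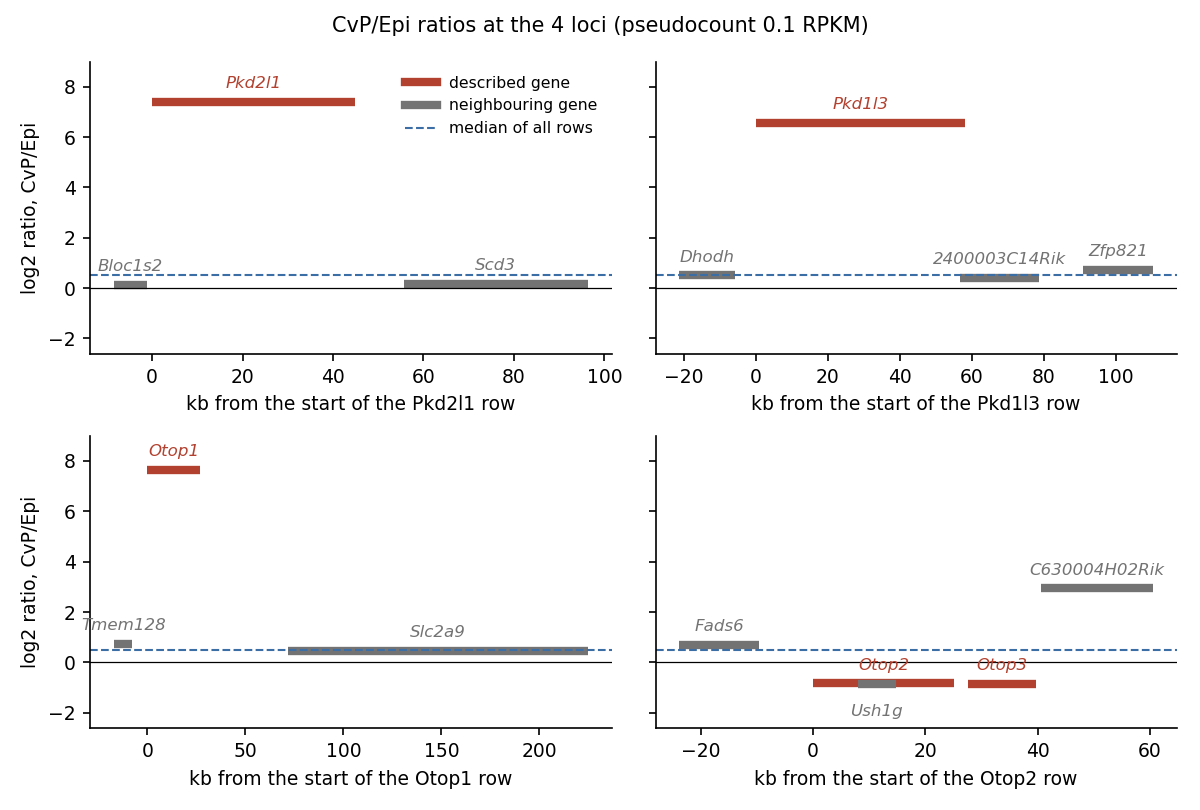
Log2 CvP/Epi ratio (vertical, pseudocount 0.1 RPKM) of the 5 genes (red) and their nearest neighbours in the table (grey), each drawn over its span in kb from the start of the first red gene's row. The dashed line is the median of rows reaching 1 RPKM in a library. The neighbours of *Pkd2l1*, *Pkd1l3* and *Otop1* lie near that line, and *Ush1g* lies at the level of *Otop2* and *Otop3*.

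Promoter sequences are shown by the direction of the ratio, with *Otop1* and *Pkd1l3* higher in the CvP and *Otop2* and *Otop3* higher in the Epi. Shared control of these genes was not tested. The sequences are from RefSeq (GRCm38.p6), in a table of promoters that matched 4 of the 5 genes by symbol, and *Pkd2l1* is not shown. Each line below gives the 250 bases before an annotated start, 5′ to 3′ on the plus strand, and each was found at exactly 1 place on its chromosome in NCBI37/mm9, namely chr5:38668393-38668642 for *Otop1*, chr8:112137884-112138133 for *Pkd1l3*, chr11:115168227-115168476 for *Otop2* and chr11:115195798-115196047 for *Otop3*. The windows of the otopetrin genes end at the base before their rows begin, and the start of *Pkd1l3* lies at position -283 relative to its row. Capitals mark matches on either strand to the short motifs searched.
Otop1: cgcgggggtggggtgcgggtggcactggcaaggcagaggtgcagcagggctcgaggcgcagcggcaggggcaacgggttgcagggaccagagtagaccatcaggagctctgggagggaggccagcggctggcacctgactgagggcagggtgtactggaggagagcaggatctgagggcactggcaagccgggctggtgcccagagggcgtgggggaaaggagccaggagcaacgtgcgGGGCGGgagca
Pkd1l3: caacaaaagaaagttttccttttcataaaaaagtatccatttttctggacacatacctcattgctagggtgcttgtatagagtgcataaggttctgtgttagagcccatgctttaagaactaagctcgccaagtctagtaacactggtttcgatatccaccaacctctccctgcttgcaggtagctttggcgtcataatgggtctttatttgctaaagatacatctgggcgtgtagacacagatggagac
Otop2: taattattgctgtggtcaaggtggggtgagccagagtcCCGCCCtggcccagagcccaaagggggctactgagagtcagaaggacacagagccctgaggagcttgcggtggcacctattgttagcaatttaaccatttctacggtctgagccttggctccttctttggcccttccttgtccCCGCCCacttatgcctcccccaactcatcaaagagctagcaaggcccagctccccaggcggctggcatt
Otop3: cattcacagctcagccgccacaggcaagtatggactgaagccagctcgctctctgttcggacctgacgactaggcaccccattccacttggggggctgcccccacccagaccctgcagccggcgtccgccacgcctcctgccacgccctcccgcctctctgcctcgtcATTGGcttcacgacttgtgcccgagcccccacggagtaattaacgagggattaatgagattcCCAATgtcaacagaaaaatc

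The motifs searched on both strands were the TATA box (TATAAA), the GC box (GGGCGG), the box named after its letters CCAAT, an E-box (CAGCTG), and the octamer (ATGCAAAT). No match overlapped another in these windows. *Otop1* held 1 GC box, near the end of its window, and *Otop2* held 2 on the other strand. *Otop3* held 2 CCAAT boxes, 1 on each strand, and *Pkd1l3* held no match to any of the 5 motifs. A GC box was present in 33.0% and a CCAAT box in 33.8% of the 32536 distinct RefSeq windows of this length. The TATA box, the E-box and the octamer, present in 12.3%, 13.1% and 1.62% of all windows, were in 0 of the 4 windows shown. The window of *Otop1* was 70% G or C and that of *Pkd1l3* 42%, with *Otop2* at 57.2% and *Otop3* at 60.4%. A second RefSeq start of *Otop2*, 15367 bases further along, and a second one of *Otop3*, 3 bases earlier, were not printed.

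Of the remaining polycystin genes, 5 of 6 listed had a row, and all 5 lay below the lowest CvP level among the members, that of *Otop2*. *Pkd1* and *Pkd2*, the genes of autosomal dominant polycystic kidney disease, were found in both libraries. *Pkd1* stood at 4.79 RPKM (CvP) and 2.71 (Epi), a ratio of 1.77 (1.64 to 1.91), and *Pkd2* one of 7.84 and 6.06 (ratio 1.29, 1.19 to 1.41). *Pkd2l2*, a further member of the *Pkd2* branch, was at 2.11 and 0.55, a ratio of 3.84 (2.67 to 5.63). *Pkd1l2* was at 0.08 and 0, about 17 reads against none. *Pkdrej*, a sperm gene, was at 0.10 and 0.15, and the interval of its ratio, 0.353 to 1.19, included 1.

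Genes listed here as partners of the sour channels were also mostly higher in the CvP. Their deposited CvP RPKM lay below that of *Pkd1l3*, a comparison that rests on the listed lengths. It was not repeated with annotated lengths. Of 7 listed partners of sour transduction, 5 reached an RPKM of 1 in either library and 4 of these had a ratio above 3, against 15.9% of all 12549 rows past that filter. *Snap25*, *Car4* and *Cacna1a* passed through their CvP values alone, so the filter itself set their ratios above 1. *Snap25*, whose product acts in the fusion of synaptic vesicles, was at 11.1 RPKM (CvP) and 0 (Epi), at least 219-fold higher. *Car4*, a membrane carbonic anhydrase that marks sour cells, was at 6.24 and 0.03, the latter about 1 read. *Cacna1a*, a presynaptic calcium channel, had a ratio of 20.9 (14.002 to 31.5), and *Ano1*, a calcium-activated chloride channel, one of 4.06 (3.65 to 4.53). *Kcnj2*, which codes for the acid-sensitive inward rectifier potassium channel of sour cells and was named after its value was seen, stood apart from the rest of this list. Its 8.91 RPKM (CvP) and 5.25 (Epi) gave a ratio of 1.70 (1.55 to 1.85). *Slc4a5* (0.01 and 0) and *Scn2a1* (0.81 and 0) stayed below 1 in both libraries.

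Other acid-sensing channels and receptors were sparse in both tissues. Of 24 listed symbols, old and current names of the same channels included, 17 had a row and only 4 reached an RPKM of 1. *Hcn4*, a pacemaker channel, reached 2.22 in the CvP, with no read in the Epi. Against the floor of 3 reads it was at least 78.6-fold higher in the CvP. *Kcnk1*, a two-pore-domain potassium channel, was the most abundant of the list, at 15.9 (CvP) and 1.14 (Epi) with a ratio of 13.9 (11.04 to 18.01). Its CvP RPKM was close to that of *Pkd2l1* by the listed lengths, and the pair was not compared by annotated lengths. *Kcnk5* was at 5.52 and 3.44, a ratio of 1.60 (1.39 to 1.85). The acid-sensing ion channel genes, listed under their older *Accn* symbols, ran from 0.02 to 0.61 in the CvP and from 0 to 0.24 in the Epi.

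Most listed markers of type III cells were, like *Pkd2l1*, *Pkd1l3* and *Otop1*, higher in the CvP. All 12 listed genes had a row, and 10 reached an RPKM of 1 in either library. Of these 10, 10 had a ratio above 3, against 15.9% of all rows past that filter. No gene of the list exceeded 0.61 in the Epi. The 10 thus passed through their CvP values alone, and the filter itself set their ratios above 1. The median log2 ratio of the 10 was 4.91 (5.62 with genes at 0 in the Epi set to their bound), against 0.50 over all rows past the same filter. With no filter on low values the median of the list was 4.32. *Ddc*, an enzyme of serotonin synthesis, was at 7.59 RPKM (CvP) and 0 (Epi). The summed RPKM of the list was 66.95 (CvP) and 1.14 (Epi), and 6 of its 12 genes were at 0 in the latter. *Tph1*, the peripheral tryptophan hydroxylase gene, was near 0 in both libraries, at 0.02 and 0, and *Slc18a2*, the vesicular monoamine transporter gene, was at 0.43 and 0.30. *Car4* and *Snap25* are also in the list of partners above, so the lists are not separate.

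Markers of other taste cells were mostly higher in the CvP as well. Of all rows past the filter, 15.9% had a ratio above 3. Of 11 listed type II cell genes 10 had a ratio above 3, led by *Gnat3*, *Gng13*, *Trpm5* and *Plcb2*. The list summed to 419.8 (CvP) and 26.4 (Epi). Most of the Epi sum came from the exception, *Itpr3*, at 30.1 RPKM (CvP) and 21.9 (Epi), a ratio of 1.37. Type I cell genes had 3 of 5 above 3, with sums of 77.96 and 10.7, and general taste tissue had 8 of 8. In these lists *Itpr3*, *Pou2f3*, *Entpd2*, *Slc1a3*, *Slc6a2* and *Sox2* reached an RPKM of 1 in both libraries. All other genes passed the filter through their CvP values alone, so the filter itself set their ratios above 1. The median log2 ratios were 5.83, 3.57 and 7.39 (5.54, 3.57 and 7.71 with genes at 0 at their bound). The type I gene *Slc1a3* went the other way, at 1.04 RPKM (CvP) and 3.82 (Epi), a ratio of 0.272 (0.221 to 0.333). The part of each cell type in the higher CvP values of *Pkd2l1*, *Pkd1l3* and *Otop1* was not tested.

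The 7 skeletal muscle genes past the filter, 5 of the 7 salivary gland genes with a row and 5 of 8 keratinized epithelium genes were, like *Otop2* and *Otop3*, higher in the Epi. Of all 12549 rows past the filter, 1.96% had an Epi/CvP ratio above 3 and 15.9% a CvP/Epi ratio above 3. Of 9 listed muscle genes 7 passed the filter, all but *Mylpf* through the Epi value alone. All 7, *Myh4*, *Ckm*, *Acta1* and *Tnnt3* the most, had an Epi/CvP ratio above 3. The sums of the 9 were 4.68 (CvP) and 52.2 (Epi). Below the filter, *Myh8* was at 0 and 0.07. *Myh2* was at 0.09 and 0.11, and the interval of its CvP/Epi ratio, 0.399 to 1.70, included 1. Of 7 salivary gland genes 5 had an Epi/CvP ratio above 3, led by *Lipf* and *Amy1*, with sums of 22.6 and 418, while 2 had a CvP/Epi ratio above 3. Those 2, *Aqp5* and *Pigr*, passed the filter through the CvP alone, and *Amy1*, *Dcpp1* and *Dcpp2* through the Epi alone. Keratinized epithelium had 3 of 8 with an Epi/CvP ratio above 3, namely *Krt76*, *Lor* and *Krt14*, and 1, *Sprr1a*, with a CvP/Epi ratio above 3. *Krt5* and *Ivl* were also higher in the CvP, with ratios of 1.19 and 1.15. The medians were -3.55 for muscle, -4.31 for gland and -1.19 for keratinized epithelium. *Krt4* and *Krt13*, with ratios of 0.527 and 0.367, lay below *Otop2* and *Otop3*. Glia and nerve genes had 2 of 4 above 3 in the CvP and 1, *Tubb3*, in the Epi (sums 33.5 and 49.7, median 2.40, or 3.03 at the bound and 0.94 with no filter on low values). Immune genes had 4 of 5 above 3 in the CvP (sums 207 and 25.9, median 1.88), with *Lyz2* alone at 131.6 RPKM in the CvP. Of these genes *Nefl*, *Uchl1*, *Lyz2*, *Csf1r* and *Ptprc* passed the filter through the CvP alone, which itself set their ratios above 1. The part of these tissues in the values of *Otop2* and *Otop3* was not tested.

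**Figure D4:**
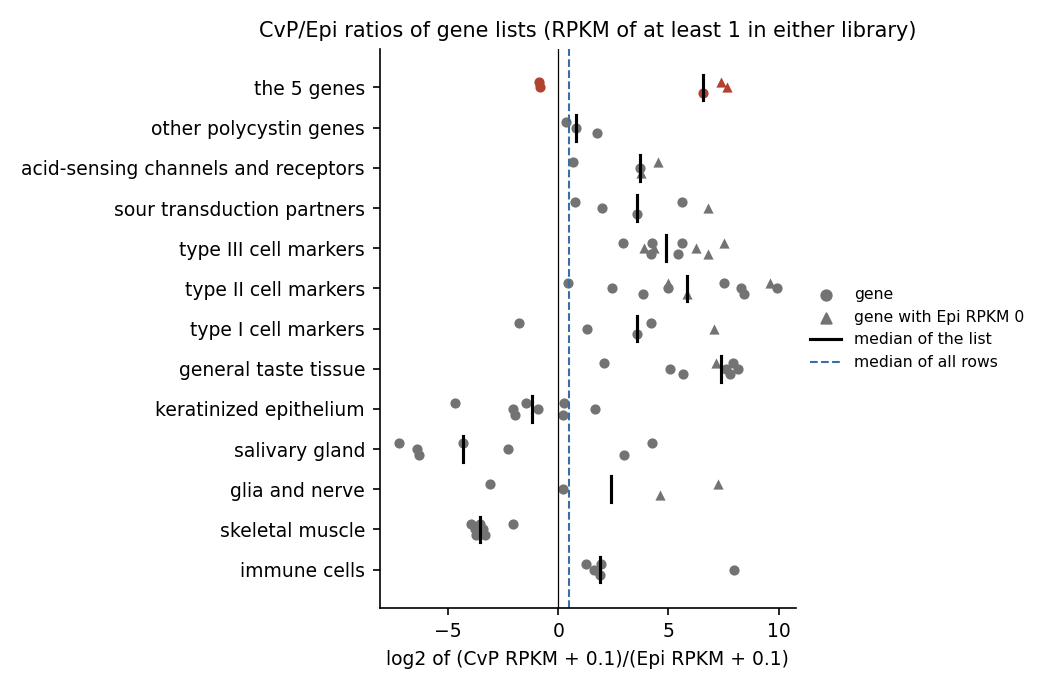
Log2 CvP/Epi ratio (horizontal, pseudocount 0.1 RPKM) of each gene that reached 1 RPKM in a library, by list, with triangles for genes at 0 in the Epi. Black bars are list medians and the dashed line is the median of all rows past the filter, 0.50. *Pkd1l3*, *Otop1* and *Pkd2l1* lie among the type III and general taste markers, and *Otop2* and *Otop3* lie between the keratinized epithelium genes.

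The genes nearest to each member were found by the Euclidean distance of log2(RPKM + 0.1) over the 2 libraries, which is a weak measure of likeness with so few points. Among the 5 nearest to *Pkd2l1* were *Abca13* (distance 0.0461), *Lrrn4*, *Kcnj5* and *Uchl1*, these 4 listed at 0 in the Epi and at 15 to 16.2 RPKM in the CvP. *Otop1* had the sweet receptor gene *Tas1r2* as its nearest (0.138), with *A2m*, the bitter receptor gene *Tas2r118* and *Pkd2l1* also among its 5 nearest. *Pkd1l3* had no close match, with *Ctgf* at a distance of 0.501, then *Basp1*, *Inhbb*, *Fscn1* and *Lrrc26*. For *Otop2* the nearest were *Slc10a6* (0.0512), *Phgdh*, *Higd1a*, *Ubtd1* and *Moxd1*, with ratios from 0.548 to 0.605. For *Otop3* they included *Tpp2* (0.0288), *Ebp*, *Pdcd4* and *Tuba8*, with ratios from 0.524 to 0.566.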

How the data were processed

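Total RNA of tongue CvP or Epi was pooled within each tissue, and poly(A) RNA was made into 1 TruSeq library per tissue. Single-end 75 bp reads were aligned by the authors to NCBI37/mm9 with Bowtie 0.12.7, and they deposited RPKM values obtained with ERANGE, whose options are not given in the sources used here. The deposited table also lists other values for each row, such as a gene length, and the authors' own CvP/Epi ratio, which was not used. Ratios were computed from the deposited RPKM with no pseudocount. Read numbers are estimates: depth times RPKM times a length, for which the longest GENCODE M1 coding transcript was taken unless the listed length was shorter. Intervals are 95% exact binomial (Clopper-Pearson) or exact Poisson, and the floor for a count of 0 was 3 reads in a library. A pseudocount of 0.1 was added for log2 ratios, so that changes of low genes come out too small. List medians were taken over genes reaching 1 RPKM in a library. The genes named were the 5 members, the other polycystin genes, up to 4 genes of each list with the largest absolute log2 ratio, the neighbours on the chromosome and the 5 nearest genes by level. Other genes were named after their values were seen. Some genes that this rule names are not reported here. The members and the 12 lists were chosen with earlier results of these data known. The depth estimate and the intervals were tested on simulated data. Python 3.11.15, numpy 2.4.6, pandas 2.3.3, scipy 1.17.1 and matplotlib 3.10.9 were used.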

Additional observations from a re-analysis of the deposited data

How the results depend on the processing

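No paired analysis was possible because the libraries carry no replicate numbers to match, there being 1 per tissue, and no replicate could be left out. The direction of all 5 ratios held under every alternative run. A pseudocount of 1 lowered the ratio to 17.8 for *Pkd2l1*, 34.7 for *Pkd1l3* and 21.1 for *Otop1*, and a pseudocount of 0.1 gave 168.6 for *Pkd2l1* and 201.7 for *Otop1*, since a pseudocount weighs most where the Epi value is near 0. Division by the median and by the trimmed mean ratio of all rows gave 395 and 394 for the bound of *Pkd2l1*, 90.6 and 90.3 for *Pkd1l3*, 448 and 446 for the bound of *Otop1*, 0.425 and 0.424 for *Otop2*, and 0.419 and 0.418 for *Otop3*. Rescaling both libraries to a common summed RPKM gave 0.674 for *Otop2* and 0.663 for *Otop3*. With reads taken from the listed length the bounds were 796 for *Pkd2l1* and 1302 for *Otop1*. Of the 5 genes, those meeting both criteria numbered 3 in each setting run except a minimum CvP RPKM of 20, with 2, and of 50, with 0. Of the 12 list medians, 9 moved by over 1.5 times with a pseudocount of 1 and 2 with no filter on low values (acid-sensing channels to 0.97, glia and nerve to 0.94), and 0 changed sign. The levels by annotated length were added after the data were seen.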
